A study of Mus musculus with 4 samples.

Results

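Of the 21705 genes listed in the table of 4 libraries, 10 encode transporters that carry glucose, lactate or amino acids across the membrane of activated T cells, and they are described here. They were chosen by name (Slc2a1, Slc2a3, Slc16a1, Slc16a3, Slc3a2, Slc7a5, Slc7a1, Slc1a5, Slc38a1 and Slc38a2), and each was found once. The choice used no rule on their values, but it was made with earlier results of these data known. All 10 had mean values over the 5 ppm filter on low values (ppm of the average library total), as did 9933 genes in all. A resting T cell takes up few nutrients, whereas an activated one imports glucose and amino acids to grow and divide and exports the lactate that glycolysis leaves. Glucose enters by facilitative carriers, lactate leaves together with a proton through monocarboxylate carriers, and amino acids enter through sodium-coupled carriers or in exchange for other amino acids. Leucine and arginine brought in this way are known to keep the growth kinase complex mTORC1 active.

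The libraries came from splenic T cells of the C57bl/6 strain, sorted by flow cytometry into a CD4 and a CD8 fraction after the spleens of 5 mice had been pooled. For each fraction there was 1 library at the time of allogeneic transplant, titled Donor, and 1 from a later day, given as day 14 in one label and day 12 in another, from T cells that had been transplanted together with allogeneic bone marrow. An allogeneic transplant moves cells between genetically different animals, and the series concerns acute graft-versus-host disease, the attack of donor T cells on the recipient. The labels name no transplant between identical mice, no agent given to these mice and no age, and they do not say whether the later libraries hold donor cells only, so that the later day and the transplant cannot be told apart. As each group is 1 library, there is no replicate error and no test, and every interval below is a 95% interval of counting error alone. Where a value is said to go from one level to another, the levels are those of 2 separate libraries.

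Values are estimated reads per gene on the submitters' scale, in which the upper quartile of the genes above 0 is about 1000. Depth lay between 9873851 estimated reads (CD8 after transplant) and 23633544 (CD4 at transplant), and the 10 transporters had between 55 and 5277 reads in a library. Log2 ratios were taken after adding 14.7 (1 ppm) to each value, and calls of higher or lower need 2-fold or more after this addition. Plain values, with nothing added, gave the ratios that have an interval. The sorted fractions carried their markers, with summed values of 3 CD4 genes at 21531, 20824, 175 and 684 and of 3 CD8 genes at 2769, 2645, 46522 and 30582.5 (in the order CD4 at, CD4 after, CD8 at and CD8 after transplant, kept below). Cd4 itself stood at 15134, 17092, 66.1 and 94.5, and Cd8a at 177, 295, 21107 and 17999. Runx3 held 2157 and 2004 of the CD8 sums in the CD4 libraries, and Zbtb7b 566 of the 684. Of 10 T cell genes (such as Cd3e) 1 was lower in CD4 and 0 in CD8 after transplant, against 10.8% and 11.0% of all tested genes. Their summed values were 85461, 71652, 83535 and 64828. Only 2 of the 10 had log2 ratios above 0 in each cell type, with medians of -0.26 and -0.39, beside -0.08 and 0.02 over all tested genes. One label field names innate lymphoid cells as the source, while another names T cells. Transcripts of other cells were present in all 4 libraries. The summed values of 10 neutrophil genes were 19562, 33906, 3514 and 29330, those of 14 macrophage and monocyte genes 10171.8, 7656, 2631 and 7029.6, and those of 8 erythroid genes 1417, 6575, 1135 and 5675. Tfrc, the transferrin receptor, which is not confined to erythroid cells, held 866, 3106, 1007 and 2790 of the erythroid sums. Summed values of 11 dendritic cell genes were 11175, 4566, 3522 and 6859, and of 9 B and plasma cell genes 660.03, 437, 448 and 265. Those of 8 genes listed for NK cells were 2516, 1473, 2838 and 10660.4, and most of the last sum came from Gzma (5140), Klrk1 (3017) and Eomes (1858), which effector CD8 T cells also express. After transplant 1 of these 8 genes was higher and 6 lower in CD4, and 4 were higher and 2 lower in CD8. Over all tested genes 12.1% were higher and 10.8% lower in CD4, and 15.0% and 11.0% in CD8. Cd244 of this list had log2 ratios of -2.22 in CD4 and 3.36 in CD8. Klra8, an NK cell receptor, had 137, 0, 39 and 0 reads and Ncr1, another, 259, 0, 12 and 2. Pax5, which defines B cells, was at 0 in the 2 libraries at transplant and in CD8 after it. The part that these cells have in the values below was not tested. In bulk RNA, fewer cells of a type and less RNA per cell cannot be told apart.

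**Figure D1:**
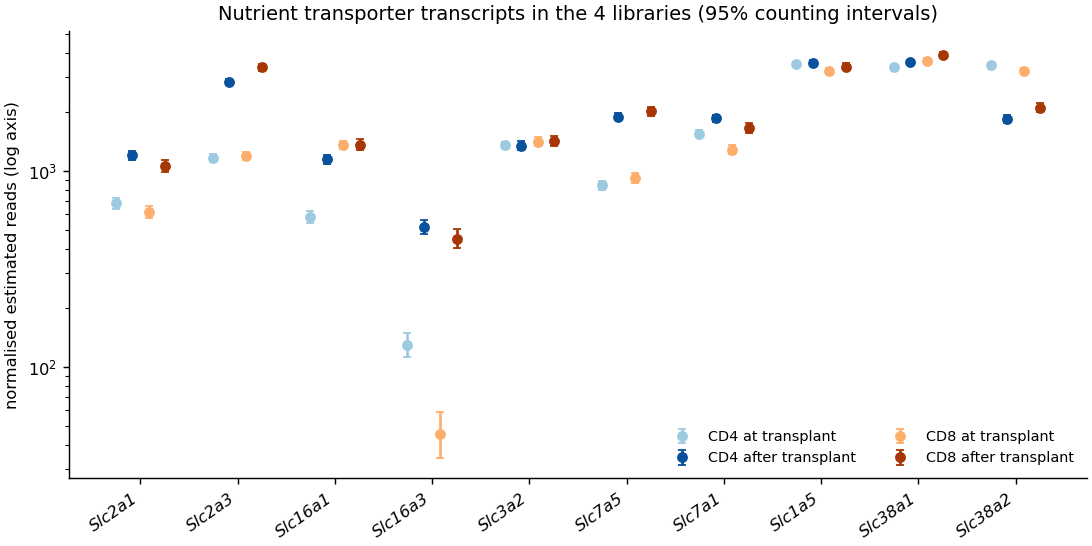
Normalised estimated reads (vertical log axis) of the 10 transporter genes in each of the 4 libraries. Points are single libraries and bars are 95% Poisson intervals of the estimated reads. Slc2a3 and Slc7a5 stand higher in both libraries after transplant, Slc38a2 stands lower in both, and Slc3a2, Slc1a5 and Slc38a1 lie close together in all 4.

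Both glucose carriers were higher after transplant, and the high-affinity carrier changed more than the classical one. Slc2a3 (Entrez 20527) encodes GLUT3, a glucose carrier of high affinity found in neurons and leukocytes. It stood at 1169 and 2837 in CD4 and at 1193 and 3375 in CD8. The 2 libraries at transplant were nearly level and both later libraries stood well above them. The ratio after against at transplant was 2.43 (2.29 to 2.57) in CD4 and 2.83 (2.65 to 3.02) in CD8, beyond 2-fold throughout both intervals. Slc2a1 (Entrez 20525) encodes GLUT1, the glucose carrier whose induction on T cell activation is best known. It went from 682 to 1204 in CD4, a ratio of 1.77 (1.63 to 1.92), and from 619 to 1058 in CD8, a ratio of 1.71 (1.54 to 1.89). Both later libraries were again the high ones, but short of 2-fold in each cell type. The reads of the antisense gene Gm12868, which shares 105 exonic bases with Slc2a1 in GENCODE, cannot be told apart from those of Slc2a1 unless the counting used the strand, which is not given in the sources used here.

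Within a library the scale cancels, so the ratio of the 2 carriers does not depend on normalisation. Slc2a3 values were 1.71, 2.36, 1.93 and 3.19 times those of Slc2a1. The ratio was thus 1.37-fold (1.24 to 1.52) higher after transplant in CD4 and 1.66-fold (1.47 to 1.87) higher in CD8. Per kilobase of the longest coding transcript in GENCODE, the level of Slc2a3 was 295 and that of Slc2a1 209 in CD4 at transplant, and 717 and 369 after it, so GLUT3 transcripts were the more abundant per length.

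The promoter of Slc2a1 is shown because its gene is a known target of the hypoxia-inducible factors. It is taken from RefSeq (GRCm38.p6, chr4:119108495-119108794, plus strand), from 250 bases before to 50 bases after the start of the gene, and capitals mark the motifs found.
Slc2a1: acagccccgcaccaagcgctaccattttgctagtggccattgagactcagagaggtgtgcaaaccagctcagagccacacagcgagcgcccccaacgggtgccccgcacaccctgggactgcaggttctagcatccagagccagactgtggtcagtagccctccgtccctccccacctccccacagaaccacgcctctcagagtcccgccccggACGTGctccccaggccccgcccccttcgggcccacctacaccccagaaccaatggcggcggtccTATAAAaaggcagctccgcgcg
The motifs searched on both strands were CACGTG (the E-box bound by Myc and related factors), ACGTG (the core of the hypoxia response element, which CACGTG contains), TGATGCA (a core of amino acid response elements) and TATAAA (the TATA box). Of 32851 promoter windows of the same length, 7.15% hold CACGTG, 19.6% ACGTG, 3.15% TGATGCA and 13.6% TATAAA. Windows were found for 6 of the 10 genes, not for Slc2a3, Slc7a5, Slc1a5 and Slc38a1, and TGATGCA was in none of them. The window of Slc2a1 holds ACGTG beginning 36 bases before the annotated start and TATAAA beginning 28 bases after it.

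The lactate carriers differed between CD4 and CD8 cells at transplant and were close to each other after it. Slc16a1 (Entrez 20501) encodes MCT1, a carrier of lactate and pyruvate that works in either direction. Its values were 583, 1146, 1360.2 and 1359.7. CD4 at transplant was the single low library, and the other 3 lay within a narrow range. At transplant CD8 stood 2.33-fold (2.15 to 2.54) above CD4, and after it 1.19-fold (1.09 to 1.29). The ratio after against at transplant was 1.97 (1.80 to 2.14) in CD4, an interval that includes 2-fold, and 0.9996 (0.922 to 1.08) in CD8. Its log2 ratio in CD4 was 0.96, just short of a call, and became 1.02 under median of ratios and 1.104 with equal library totals.

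Slc16a3 (Entrez 80879) encodes MCT4, a carrier of glycolytic cells that mainly exports lactate. It stood at 129.5 and 515 in CD4 and at 45.4 and 451 in CD8, from 195 and 588 reads and from 55 and 320 reads. Both later libraries were far above those at transplant, and CD8 at transplant was the lowest. The ratio after against at transplant was 3.98 (3.38 to 4.71) in CD4 and 9.93 (7.44 to 13.5) in CD8, the largest among the 10 genes in each cell type. At transplant CD8 was 2.85-fold (2.10 to 3.92) lower than CD4, the opposite order to that of Slc16a1, and after transplant the ratio of CD8 to CD4 was 0.876 (0.762 to 1.01). The values of Slc16a3 were 0.222, 0.450, 0.0334 and 0.332 times those of Slc16a1. This within-library ratio was 2.02-fold (1.69 to 2.43) higher after transplant in CD4 and 9.94-fold (7.38 to 13.4) higher in CD8.

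Some marker transcripts of neutrophils and their precursors had values close in pattern to those of Slc16a3, and others did not. Among the 8945 genes averaging 10 ppm or more, the one nearest to Slc16a3 by Euclidean distance of the centred log2 values over the 4 libraries was Mpo, the myeloperoxidase of immature neutrophils (distance 0.11). Mpo stood at 144, 612, 49.6 and 495, and Slc16a3 values were 0.899, 0.842, 0.917 and 0.911 times those of Mpo. Elane, neutrophil elastase, stood at 52.5, 309, 14.9 and 209. S100a8, an abundant protein of mature neutrophils, stood at 4026, 7330.3, 679.7 and 6405, and Slc16a3 to S100a8 ratios were 0.0322, 0.0703, 0.0668 and 0.0704. Of the 10 neutrophil genes, 3 were higher and 1 lower after transplant in CD4 (median log2 ratio 0.83) and 9 were higher in CD8 (2.95). The one lower in CD4 was Cxcr2, a chemokine receptor of mature neutrophils, which was 2.89-fold (2.34 to 3.601) lower, and S100a8 was 1.82-fold (1.76 to 1.88) higher there against 3.98-fold for Slc16a3. None of the 10 was at 0 in any library. Of 13 measured macrophage and monocyte genes 1 was higher and 7 lower in CD4 and 10 were higher in CD8. All 8 erythroid genes, Tfrc included, were higher in both. Among all tested genes 12.1% were higher and 10.8% lower in CD4, and 15.0% and 11.0% in CD8. Csf1r of the macrophage list, the receptor of a macrophage growth factor, stood at 1002, 114, 71.9 and 95.9. It was not among the 10 of that list that were higher in CD8. Ccr2 of the same list, the one higher in CD4, had log2 ratios of 2.46 in CD4 and 2.50 in CD8. Which cells held the Slc16a3 transcripts was not tested.

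**Figure D2:**
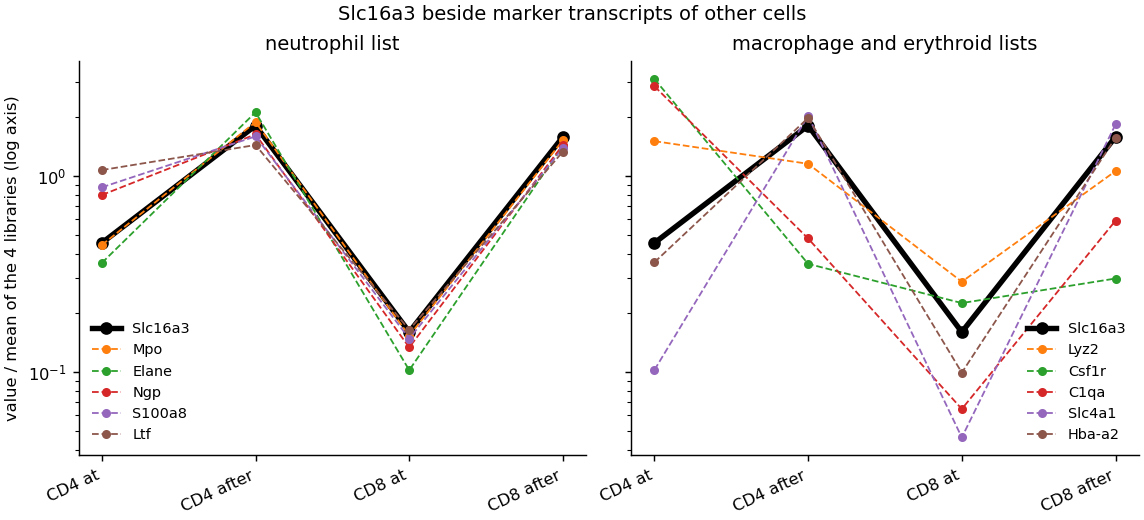
Values of Slc16a3 (black) and of marker transcripts of neutrophils (left) or of macrophages and erythroid cells (right), each divided by its mean over the 4 libraries (vertical log axis). Points are single libraries, and the lines only join points of the same gene. Slc16a3 and Mpo nearly coincide, with ratios between 0.842 and 0.917, while Csf1r is highest in CD4 at transplant.

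The promoters of both lactate carriers (RefSeq, GRCm38.p6) are shown beside each other because the 2 genes had unlike values at transplant and unlike changes after it. The windows are chr3:104638414-104638713, plus strand, for Slc16a1 and chr11:120948817-120949116, plus strand, for Slc16a3, and capitals again mark the motifs.
Slc16a1: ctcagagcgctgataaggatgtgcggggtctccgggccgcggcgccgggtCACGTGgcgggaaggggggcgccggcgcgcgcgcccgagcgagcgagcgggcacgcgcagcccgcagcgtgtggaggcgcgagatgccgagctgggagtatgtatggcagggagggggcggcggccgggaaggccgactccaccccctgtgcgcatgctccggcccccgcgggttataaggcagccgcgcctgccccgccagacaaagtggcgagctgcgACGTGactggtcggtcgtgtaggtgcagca
Slc16a3: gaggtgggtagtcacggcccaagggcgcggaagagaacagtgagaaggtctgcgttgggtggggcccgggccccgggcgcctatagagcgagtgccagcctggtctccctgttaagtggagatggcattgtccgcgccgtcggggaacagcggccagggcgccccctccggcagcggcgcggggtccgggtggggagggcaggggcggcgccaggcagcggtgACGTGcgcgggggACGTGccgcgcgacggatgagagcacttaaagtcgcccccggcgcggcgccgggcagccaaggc
The window of Slc16a1 holds CACGTG beginning 200 bases before the start of the gene and a separate ACGTG beginning 20 bases after it. The window of Slc16a3 holds ACGTG 2 times, beginning 27 and 14 bases before the start. Among the windows not printed, that of Slc3a2, a gene level in all 4 libraries, also holds ACGTG. It lies there on the opposite strand (read as CACGT), beginning 164 bases before the start. A window of Slc7a1 holds TATAAA beginning 28 bases before the start. A match of these letters is a description of the sequence and not of binding.

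MCT1 and MCT4 reach the membrane with the help of basigin, a glycoprotein chaperone encoded by Bsg. Bsg went from 1566 to 2724 in CD4, a ratio of 1.74 (1.65 to 1.84), and from 1901 to 2705 in CD8, a ratio of 1.42 (1.34 to 1.51). Its relative Emb, embigin, stood at 5266, 5516, 5668 and 5587, with all libraries nearly level. Lactate itself is made by lactate dehydrogenase, and Ldha, the subunit that favours lactate, went from 8363 to 14768 in CD4 (ratio 1.77, 1.73 to 1.81) and from 6766 to 15229.9 in CD8 (2.25, 2.19 to 2.32). Ldhb, the subunit that favours pyruvate, went from 342 to 85 in CD4, 4.02-fold (3.23 to 5.05) lower, and from 125.5 to 59.2 in CD8, 2.12-fold (1.50 to 3.06) lower. Ldha was chosen after its values were seen.

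Large neutral amino acids enter through a heterodimer, and its 2 subunits differed. Slc7a5 (Entrez 20539) encodes LAT1, the light chain that exchanges leucine and other large neutral amino acids for glutamine. It went from 843 to 1886 in CD4, a ratio of 2.24 (2.09 to 2.40), and from 916 to 2016 in CD8, a ratio of 2.20 (2.03 to 2.38). The 2 libraries at transplant were alike, the 2 after it were alike, and the pairs did not overlap. Slc3a2 (Entrez 17254) encodes CD98, the heavy chain that carries LAT1 and other light chains to the membrane and also binds integrins. It stood at 1350.6, 1346, 1412 and 1423, level in all 4 libraries. The ratio after against at transplant was 0.996 (0.932 to 1.07) in CD4 and 1.01 (0.931 to 1.09) in CD8. Within a library Slc7a5 values were 0.624, 1.40, 0.649 and 1.42 times those of Slc3a2, so the ratio of light to heavy chain was 2.25-fold (2.04 to 2.47) higher after transplant in CD4 and 2.18-fold (1.96 to 2.44) higher in CD8.

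Of the other light chains that pair with CD98, Slc7a11 was also higher after transplant in both cell types. Slc7a11, the light chain of the cystine importer, went from 963 to 1844 in CD4 (ratio 1.91, 1.79 to 2.05) and from 933 to 2164 in CD8 (2.32, 2.15 to 2.51), and it was called higher in CD8 alone (log2 ratios 0.93 and 1.20). Slc7a6, a light chain that carries cationic and neutral amino acids, stood at 952, 1026, 977 and 1092, nearly level. Slc7a7 had 82, 12, 12 and 10 reads and was called lower in CD4, by 5.17-fold (2.81 to 10.4). Its ratio in CD8 was 1.41 (0.551 to 3.59). Slc7a8 had 41, 23, 5 and 18 reads and was called higher in CD8, with a ratio of 6.15 (2.20 to 21.2). Its ratio in CD4 was 0.741 (0.424 to 1.26). Few reads lie behind these 2 genes, and their intervals are wide. Leucine carriers that need no heavy chain went in opposite directions. Slc43a2 went from 1225 to 906 in CD4 and from 1799.6 to 705 in CD8, where it was 2.55-fold (2.31 to 2.82) lower. Slc43a1 went from 31.9 to 139 in CD4, a ratio of 4.37 (3.15 to 6.17), and from 60.3 to 93.1 in CD8, a ratio of 1.54 (1.09 to 2.18).

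Arginine and lysine enter through the carrier CAT1, encoded by Slc7a1 (Entrez 11987), which is also the receptor of ecotropic murine leukaemia virus. Slc7a1 stood at 1544, 1854, 1284 and 1650.2. Each later library was above its counterpart at transplant, and CD4 was above CD8 on both days. The ratio after against at transplant was 1.20 (1.13 to 1.27) in CD4 and 1.28 (1.19 to 1.39) in CD8, and the ratio of CD8 to CD4 was 0.832 (0.780 to 0.887) at transplant and 0.890 (0.828 to 0.956) after it. In CD4 and in CD8 alike, 2 of 7 measured genes of arginine and polyamine metabolism were higher and 0 were lower, with medians of 0.12 and 0.13. Shares over all tested genes were 12.1% higher and 10.8% lower in CD4, and 15.0% and 11.0% in CD8. Odc1, the enzyme that begins polyamine synthesis, went from 742 to 7250.5 in CD4 (ratio 9.77, 9.17 to 10.4) and from 789.5 to 3859 in CD8 (4.89, 4.54 to 5.27).

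The 3 carriers of glutamine and small neutral amino acids did not change together. Slc1a5 (Entrez 20514) encodes ASCT2, an exchanger of glutamine and other neutral amino acids. It stood at 3504, 3558, 3251 and 3399, level in all libraries, with ratios after against at transplant of 1.02 (0.975 to 1.06) in CD4 and 1.05 (0.994 to 1.10) in CD8. Slc38a1 (Entrez 105727) encodes SNAT1, which imports glutamine with sodium, and it stood at 3379, 3588, 3647 and 3914, with ratios of 1.06 (1.02 to 1.11) and 1.07 (1.02 to 1.13). These libraries were also nearly level. Slc38a2 (Entrez 67760) encodes SNAT2, a sodium-coupled carrier that cells raise when amino acids are short. It was the only one of the 10 that was lower after transplant by more than counting error in both cell types. It went from 3452 to 1837 in CD4, 1.88-fold (1.79 to 1.98) lower, and from 3247 to 2102 in CD8, 1.54-fold (1.46 to 1.64) lower, short of 2-fold throughout both intervals. The 2 libraries at transplant stood above both later ones. Within a library Slc38a2 values were 1.02, 0.512, 0.890 and 0.537 times those of Slc38a1, a ratio that was 1.99-fold (1.87 to 2.13) lower after transplant in CD4 and 1.66-fold (1.54 to 1.79) lower in CD8.

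The promoter of Slc38a2 (RefSeq, GRCm38.p6, chr15:96699679-96699978, minus strand, printed in the direction of the gene) is shown as that of the gene with lower values after transplant.
Slc38a2: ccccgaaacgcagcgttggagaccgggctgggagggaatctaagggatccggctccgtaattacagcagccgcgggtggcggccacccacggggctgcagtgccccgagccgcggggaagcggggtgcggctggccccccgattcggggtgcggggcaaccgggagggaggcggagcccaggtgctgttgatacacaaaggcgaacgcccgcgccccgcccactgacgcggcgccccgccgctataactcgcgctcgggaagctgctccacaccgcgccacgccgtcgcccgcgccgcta
None of the 4 motifs was found in this window, which says only that these letters are not in it.

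**Figure D3:**
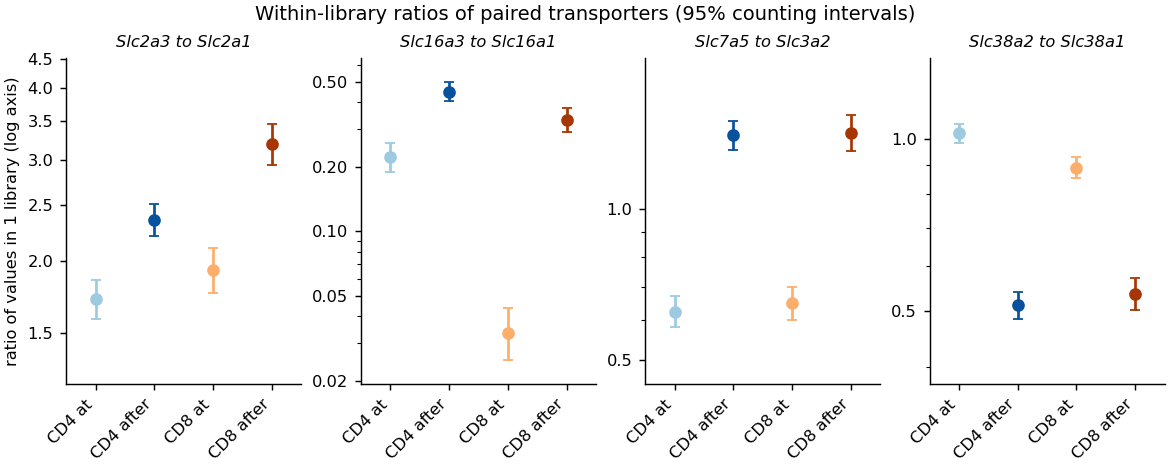
Ratio of the values of 2 transporters in the same library (vertical log axes, which differ between panels), with 95% exact counting intervals. Points are single libraries in the order CD4 at, CD4 after, CD8 at and CD8 after transplant. The Slc7a5 to Slc3a2 ratio goes from 0.624 and 0.649 to 1.40 and 1.42, and the Slc38a2 to Slc38a1 ratio from 1.02 and 0.890 to 0.512 and 0.537.

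Of the 10 transporters, 3 (Slc2a3, Slc16a3 and Slc7a5) were at least 2-fold higher after transplant in CD4, where 12.1% of the 9933 genes were, and 0 were lower, against 10.8% of all genes. In CD8 the same 3 were higher, against 15.0% of all genes, and 0 were lower, against 11.0%. Their intervals lay wholly beyond 2-fold in both cell types. The median log2 ratio of the 10 was 0.53 in CD4 and 0.23 in CD8, beside -0.08 and 0.02 over all tested genes. Members ranged from -0.90 to 1.88 in CD4 and from -0.62 to 2.95 in CD8. Of 156 genes with an Slc name past the same filter, the 10 included, 15 were higher and 13 lower in CD4 (9.62% and 8.33%) and 26 and 15 in CD8 (16.7% and 9.62%), with medians of -0.02 and 0.07. With equal library totals the number higher in CD4 was 24.

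**Figure D4:**
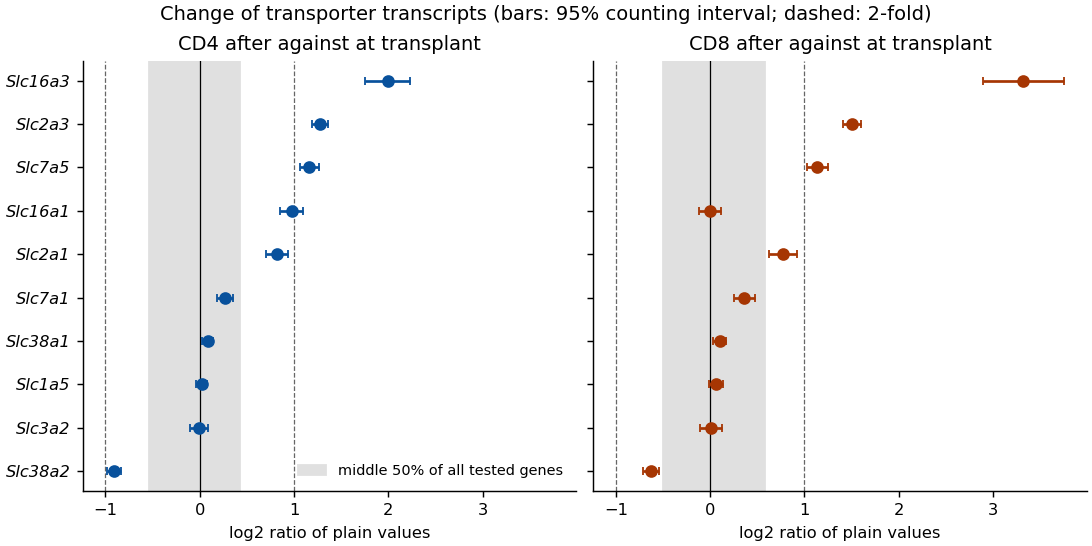
Log2 ratio of plain values after against at transplant for each transporter in CD4 (left) and CD8 (right), with 95% exact counting intervals, genes ordered by the CD4 ratio. Grey bands hold the middle 50% of the 9933 tested genes (with the pseudocount) and dashed lines mark 2-fold. Slc16a3, Slc2a3 and Slc7a5 lie beyond 2-fold in both panels, and Slc16a1 lies at 0 in CD8.

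Between the cell types the 10 genes differed little, apart from the lactate carriers. At transplant 1 was higher in CD8 than in CD4 (Slc16a1, log2 ratio 1.20), against 1.48% of all genes, and 1 was lower (Slc16a3, -1.26), against 4.92%, or 2 of 10 against 6.40% in either direction. The call of Slc16a3 was lost with a pseudocount 4 times as large (-0.85). After transplant 0 were higher and 0 lower, against 0.956% and 2.42% of all genes (3.37% in either direction), and the 10 log2 ratios lay between -0.19 and 0.25. The change after transplant in CD8 exceeded that in CD4 by at least 2-fold for 1 gene, Slc16a3 (difference of log2 ratios 1.08), against 4.02% of all genes, or 6.04% in either direction. On plain values its change was 2.50-fold (1.80 to 3.47) larger in CD8, and that of Slc16a1 was 0.509 times as large (0.453 to 0.572). On the submitters' scale the ratio of Slc2a3 after against at transplant was 1.17 (1.07 to 1.27) times as high in CD8 as in CD4. The median difference of log2 ratios over all tested genes was 0.09 on this scale. Slc38a2 was lower after transplant in both, but less so in CD8, where its ratio was 1.22 (1.12 to 1.32) times that in CD4. For the other 6 genes the interval of the difference on this scale included no change, the widest being that of Slc2a1 (0.849 to 1.10). Under trimmed mean of M-values and median of ratios the Slc16a3 difference was short of 2-fold (0.97 and 0.96), and that of Slc16a1 passed it with the smaller change in CD8 (-1.09 and -1.10). The differences of Slc2a3 and Slc38a2 are smaller under these scalings too. Trimmed mean of M-values, for one, multiplies CD8 values by 1.07 at and 0.998 after transplant, and CD4 values by 0.954 and 0.980.

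Levels can be compared between genes only per length, and lengths came from GENCODE (GRCm38), not from the submitters' mm9 annotation. Whether the longest or the median coding transcript was used, Slc1a5 was the most abundant of the 10 per kilobase in all 4 libraries and Slc16a3 the least. With the longest transcript Slc1a5 stood at 1268, 1287, 1176 and 1230 per kilobase and Slc16a3 at 29.9, 119, 10.5 and 104. By the longest transcript Slc2a3 had rank 5 in CD4 and rank 6 in CD8 at transplant and rank 2 in both later libraries, and by the median one rank 3 in CD4 and rank 2 in CD8 after transplant.

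Relatives of the 10 genes were mostly scarce, and those present differed among themselves. Their counts stand beside 12.1% of all tested genes higher and 10.8% lower in CD4, and 15.0% and 11.0% in CD8. Of 10 other glucose carriers 3 counted as measured, averaging 1 ppm or more, and 2 of these were higher in each cell type. Slc2a8, an intracellular hexose carrier, went from 77.7 to 334 in CD4 (ratio 4.30, 3.49 to 5.34) and from 75.2 to 252 in CD8 (3.36, 2.60 to 4.37), and Slc2a6 from 47.1 to 113 and from 12.4 to 94.5. Of 12 other monocarboxylate carriers 5 were measured, of which 1 was higher and 2 lower in CD4 and 2 were higher and 1 lower in CD8. Slc16a5, a carrier of the same family, had 1575 reads at and 11 after transplant in CD4, 108-fold (60.4 to 218) lower, and 1177 and 5 reads in CD8, 138-fold (58.9 to 425) lower. It differed most in the family and was the one gene of it called lower in CD8. Slc16a6 went from 337 to 808 in CD4 and from 449.6 to 969 in CD8. Slc16a11 went from 10 to 24 reads in CD4 and from 4 to 79 reads in CD8. Slc16a10, which carries aromatic amino acids, went from 328 to 152 in CD4 and from 213 to 139.6 in CD8. Of 9 other SNAT genes 5 were measured, with 1 higher in each cell type (Slc38a5, from 8 to 31 reads and from 2 to 29). Slc38a6 went from 10755 to 15497 in CD4 (ratio 1.44, 1.41 to 1.47) and from 10314 to 16023 in CD8 (1.55, 1.51 to 1.59).

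The counts of genes that use what the carriers bring in stand beside 12.1% of all tested genes higher and 10.8% lower in CD4, and 15.0% and 11.0% in CD8. Of 18 measured glycolysis genes 5 were higher and 2 lower in CD4 (median 0.49) and 7 higher and 1 lower in CD8 (0.78). Log2 ratios of 14 of the 18 were above 0 in CD4 and of 16 in CD8. Hk2 changed most, from 63.1 to 591 in CD4 (ratio 9.37, 7.55 to 11.7) and from 52.9 to 611 in CD8 (11.6, 8.87 to 15.3). Next came Tpi1, with ratios of 6.92 (6.49 to 7.38) and 7.11 (6.60 to 7.68). Pdk1, a mitochondrial kinase that inhibits pyruvate dehydrogenase, went from 4772 to 893 in CD4, 5.34-fold (5.00 to 5.71) lower, and from 3460.4 to 762 in CD8, 4.54-fold (4.15 to 4.98) lower. Of 10 genes of glutamine and aspartate use 2 were higher and 1 lower in CD4 (median 0.40) and 2 higher and 0 lower in CD8 (0.42). Asns, which makes asparagine from aspartate and glutamine, went from 18.6 to 355 in CD4 (ratio 19.1, 13.0 to 29.1) and from 7.43 to 439 in CD8 (59.0, 30.7 to 130.3). Got2, a mitochondrial aspartate transaminase, had ratios of 2.66 (2.50 to 2.83) and 2.89 (2.69 to 3.11). Of 7 genes of branched-chain amino acid breakdown 1 was higher in each cell type, a share near that of all genes. It was Bcat1, the cytosolic transaminase that takes leucine as a substrate. It went from 18.6 to 319 in CD4 (17.2, 11.7 to 26.2) and from 22.3 to 489 in CD8 (21.9, 14.8 to 33.8).

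Among 19 measured regulators of transporter genes 3 were higher and 3 lower in CD4 (median -0.08), and 3 were higher and 5 lower in CD8 (-0.33). For these and for the Atf4 targets below, the shares of all tested genes were 12.1% higher and 10.8% lower in CD4. In CD8 they were 15.0% and 11.0%. Hif1a, the hypoxia-inducible factor known to induce Slc2a1 and Slc16a3, went from 2694 to 13862.5 in CD4 (ratio 5.15, 4.97 to 5.33) and from 1884 to 8574.5 in CD8 (4.55, 4.34 to 4.78). Its relative Epas1 went from 483 to 1585 in CD4 and from 46.2 to 876 in CD8. Among the genes called lower, Foxo1 was 5.52-fold (5.21 to 5.86) lower in CD4 and 3.74-fold (3.48 to 4.02) lower in CD8. Klf2 was 3.70-fold (3.52 to 3.88) and 3.41-fold (3.23 to 3.61) lower. Myc, which induces amino acid carriers in activated T cells, was at 1324, 900.3, 1874 and 1076, 1.47-fold (1.36 to 1.59) lower after transplant in CD4 and 1.74-fold (1.60 to 1.89) lower in CD8. Txnip, an arrestin that removes GLUT1 from the cell surface, was at 14341, 7595, 13705 and 5207, 1.89-fold (1.84 to 1.94) and 2.63-fold (2.54 to 2.73) lower. Atf4, the factor of the amino acid response, was at 2638, 2473, 2148 and 2549, with all libraries close. Myc, Txnip and Atf4 were picked out after their values were seen. Of 16 measured Atf4 target genes 3 were higher and 1 lower in CD4 (median 0.42) and 6 higher and 0 lower in CD8 (0.59). Psat1, an enzyme of serine synthesis, had ratios of 2.90 (2.68 to 3.14) and 4.10 (3.76 to 4.48), while Trib3, an inhibitor of Atf4, was 3.12-fold (2.11 to 4.75) lower in CD4 and 3.40-fold (1.2999 to 11.2) lower in CD8, from 29 and 5 reads and not called there.

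Of 23 measured genes of mTORC1 amino acid sensing, 4 were lower and 0 higher in CD4 (median -0.26), and the numbers were the same in CD8 (-0.44). These counts stand beside 10.8% of all tested genes lower and 12.1% higher in CD4, and 11.0% and 15.0% in CD8. Sesn1, a sestrin that restrains mTORC1 when leucine is short, went from 2336 to 467 in CD4, 5.00-fold (4.56 to 5.49) lower, and from 2034 to 223 in CD8, 9.13-fold (7.77 to 10.8) lower. Sesn3, its relative, was 2.30-fold (2.12 to 2.48) lower in CD4 and 3.18-fold (2.83 to 3.59) lower in CD8. Rragd, a GTPase that recruits mTORC1 to lysosomes, went from 131 to 17 reads and from 142 to 9 reads. Flcn, an activator of that GTPase, was called lower in CD4 and Rptor, a core subunit of mTORC1, in CD8.

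**Figure D5:**
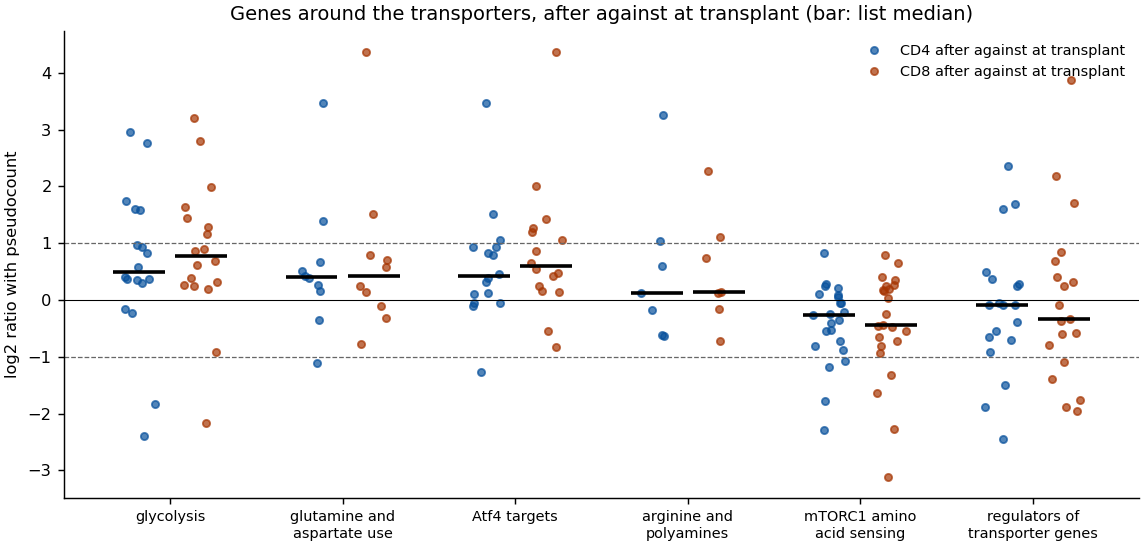
Log2 ratios after against at transplant, with the pseudocount, of the measured genes of 6 lists in CD4 (blue) and CD8 (brown). Each point is a gene, horizontal bars are list medians and dashed lines mark 2-fold. Medians lie above 0 for glycolysis (0.49 and 0.78) and below 0 for mTORC1 amino acid sensing (-0.26 and -0.44).

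The profiles of the transporters over the 4 libraries were also compared with each other by the distance used above. Slc3a2 and Slc38a1 lay at a distance of 0.10, which ranked 112 and 90 among the 8945 genes compared, and Slc2a3 and Slc7a5 at 0.27, where Slc7a5 ranked 103 for Slc2a3 and Slc2a3 ranked 204 for Slc7a5. By the same measure the nearest genes were Sirt2 for Slc2a1, Ubxn8 for Slc2a3, Cenpc1 for Slc7a5 and Klhl7 for Slc38a2, at distances of 0.04, 0.04, 0.05 and 0.02, and B3gnt5 for Slc16a1 at 0.21. With 4 libraries many genes share such a profile, and the distance describes these libraries only.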

How the data were processed

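Gene expression was measured by RNA-seq in 4 libraries, and the 10 transporter genes were taken from the deposited table by symbol. Per the labels, RNA of sorted splenic T cells was extracted with an RNeasy kit and libraries were made with the TruSeq protocol. The deposited values are a signal: estimated reads per gene, which the authors had scaled to an upper quartile of about 1000 over the genes above 0 of a library. Tools named in the submitters' processing notes are RSEM 1.1.13 and SAMtools 1.2, with the build mm9, while the aligner, annotation, strand setting and scaling step are not given in the sources used here. Columns were mapped to libraries by title. A further 2 columns without header or values were left out.

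Dividing by the value of 1 read (0.664, 0.877, 0.826 and 1.41 in the 4 libraries) gave estimated reads, and 86.4 to 87.6% of the genes above 0 were within 0.1 of a whole number of reads, not all of them. Reads rounded to whole numbers gave the 95% intervals: exact conditional binomial ones for ratios, and normal approximations on the log scale for changes of ratios and differences of changes. PCR copies are not independent molecules, and the intervals hold no spread between pools of mice. Per the authors' notes RSEM was used, which shares out reads that match several genes.

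Log2 ratios carried a pseudocount of 14.7 (1 ppm of the mean library total), the genes averaging 5 ppm or more (73.3) formed the background, and list members with a mean of at least 1 ppm counted as measured. The alternatives were 4 other scalings, pseudocounts 0.25 and 4 times as large, other filters and a call on the counting interval, and 1 setting, a pseudocount in the within-library ratios, was added after the values were seen. Genes named from the lists were those with the 4 largest absolute log2 ratios of a list and comparison, apart from members, list markers, genes given beside them for their role, and those said to have been chosen later. The members and lists were chosen with earlier results of these data known. The procedures were checked on simulated data. Python 3.11.15, numpy 2.4.6, pandas 2.3.3 and scipy 1.17.1 were used.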

Additional observations from a re-analysis of the deposited data

How the results depend on the processing

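No paired analysis was possible because each group holds 1 library, and no library could be left out for the same reason. Over 6 settings (4 scalings and 2 pseudocounts) the 10 log2 ratios of the 4 comparisons gave 240 values, of which 3 changed side of 2-fold and 15 changed sign, all of the latter with a reported log2 ratio between -0.14 and 0.06. The 3 were Slc16a1 in CD4 (1.02 under median of ratios and 1.104 with equal totals) and Slc16a3 in CD8 against CD4 at transplant (-0.85 with a pseudocount 4 times as large, which left 0 lower members). The number of members higher after transplant was 3 or 4 in CD4 and 3 in CD8 under every one of these settings and with counting intervals wholly beyond 2-fold. For the difference between the CD8 and CD4 changes, members at least 2-fold higher numbered 0 under median of ratios, trimmed mean of M-values and the larger pseudocount, and members at least 2-fold lower numbered 1 (Slc16a1) with equal totals, median of ratios and trimmed mean of M-values. Background shares moved by over 1.5 times in these cases: with the larger pseudocount, genes lower in CD8 than CD4 were 3.18% at and 1.59% after transplant. With a filter of 20 ppm, genes lower in CD8 at transplant were 2.57%, genes higher in CD8 after it 0.587%, and genes with a change at least 2-fold higher in CD8 2.09%. Of 1356 list counts under these settings 70 moved by over 1.5 times. The median of all tested genes moved by over 0.1 for CD8 against CD4 at transplant, from -0.14 to 0.02 and 0.04 under trimmed mean of M-values and median of ratios, for the difference of changes, from 0.09 to -0.04 and -0.05, and for CD4 with equal totals, from -0.08 to 0.07. The added pseudocount kept each within-library ratio inside its interval. Slc16a3 in CD8 at transplant, with 55 reads, had the widest interval of the 10 genes.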
